A study of Saccharomyces cerevisiae with 36 samples.

Results

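CAGE, a method that sequences the capped 5′ ends of RNA, was used in this budding yeast study. It gave lists of single nucleotides, read as the places where capped RNAs start. The positions described here are those that lie inside annotated genes on the coding strand. A position was taken when it lay between the start and stop of a gene in the deposited gene table, on the same chromosome and strand, and not within 200 nt upstream of another gene on that strand. This gave 1060 positions of the 12006 in the dcp2 and wild-type lists together. They were 796 of the 10183 positions of the dcp2 list (7.82%) and 720 of the 9340 positions of the wild-type list (7.71%). They lay in 796 of 5798 genes (13.7%), of which 588 held 1 position, 163 held 2, 36 held 3, 7 held 4 and 2 held 5. Joined over gaps of up to 20 nt they formed 916 clusters.

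The dcp2 list came from the strain dcp2-7 (YAM2283) and the other from a DCP2 wild type (YAM1), both in the S288C background. The labels give the same barcode for both dcp2-7 CAGE replicates, with another one added for the second, so how the dcp2-7 reads were split between replicates is not clear from them. The genotype of each list is the one in its name and in the samples' labels. Both were grown in rich medium to mid-log phase and moved to 37 °C for 2 h, and each genotype had 2 biological replicates, which the authors pooled into 1 list. The lists hold positions without heights. No test between the genotypes was therefore possible for the positions, and the differences between lists below are counts and shares with 95% Wilson intervals. The intervals cover only the counting of listed positions, not the reads behind a position or the spread between cultures. RNA levels of the same genes came from strand-specific, rRNA-depleted RNA-seq of dcp2-7 and wild type at 37 °C. The same kind of RNA-seq was used for an upf1Δ strain (YAM202) and its wild type (YAM1). It was also used for an xrn1Δ strain (YAM6) and its wild type, both labelled S288C. The upf1Δ and xrn1Δ libraries and those of their wild types carry no 37 °C label. In dcp2-7 and wild type at 37 °C, RNA digested with Terminator, an exonuclease that degrades RNA with a 5′ monophosphate and leaves capped RNA, was set against undigested RNA, in the same undigested libraries as the comparison of the strains. Each of these groups had 2 libraries, with 24385661 to 68466587 reads on features in the 12 rRNA-depleted and 13208233 to 23350952 reads in the 4 Terminator libraries. The models that gave the tests also held wild-type and xrn1 libraries of other strains, haploid and diploid SK1 and W303, and Terminator-treated wild-type and xrn1 libraries of S288C, which add to the estimate of the spread and are not compared here. The labels do not say whether the 2 libraries came from separate cultures, so p-values measure the spread between these samples, which may be technical. Levels are the deposited densities. They were read from their values as reads per nucleotide of the feature, scaled so that snoRNA reads sum to the same value in every library, a scaling that the sources used here do not describe. The deleted genes had low densities in their strains. NAM7, which encodes Upf1, had 0.000869 and 0.00151 in upf1Δ, against 0.589 and 0.581 in its wild type, and XRN1 had 0.00309 and 0.00399 in xrn1Δ, against 1.62 and 1.57 in its wild type.

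In yeast, RNA polymerase II starts most often at a purine that follows a pyrimidine, a pair called the initiator here, and an A is common 8 bases before the start. The cap placed on the new 5′ end protects the RNA until Dcp2, the catalytic subunit of the decapping enzyme, removes it and the 5′ to 3′ exonuclease Xrn1 degrades the rest. An RNA that starts past the annotated start codon lacks it, and a ribosome scanning from its 5′ end meets another ATG, which may or may not be in the reading frame of the gene. Out-of-frame ATGs commonly lead to early stop codons, and RNAs with early stop codons are recognised by nonsense-mediated decay, which needs Upf1 and acts in yeast mainly through decapping.

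Internal positions fell into 2 sequence classes, and the sequences below show what set them apart. In the first class, with 772 positions, the position was a purine after a pyrimidine. In the second, with 266 positions, the base before it was a G. A further 19 had neither, and 3 on the 2-micron plasmid had no reference sequence. Each line gives the coding strand, 5′ to 3′, from 15 bases before the position to 14 after it, from RefSeq's R64 reference. The first lines are initiator positions of genes with many internal positions, with the pyrimidine and the purine in capitals.
URA2 (chr10:172506-172535, minus strand): tcatggcacgaaagCAaatcaatctcttca
PRY3 (chr10:291768-291797, minus strand): tgtctagaaaatgaTGacactgccttttct
EEB1 (chr16:369087-369116, minus strand): tgcctgaatgggagCAaacatattcattaa
YAT2 (chr5:202809-202838, plus strand): agaccctgattattCAagcgatgaggacga
DUR12 (chr2:639925-639954, minus strand): attgcacagaaggcTGgcgttcctctagtg
TNA1 (chr7:1013385-1013414, plus strand): ccggacgaaaaattTGaatggttccaagtg
NCS2 (chr14:402088-402117, plus strand): cagataaattgacgCAacctaaatcaagta
The next lines are G-preceded positions, with the run of Gs that ends just before the position in capitals. FKS1, RPA135 and COX1 are among the genes with many positions, and the other 6 were chosen after the data were seen, as the longest such runs among positions in both lists.
FKS1 (chr12:810919-810948, plus strand): atctgttatgttGGGgtgaagctaatcaag
RPA135 (chr16:580505-580534, minus strand): cttcgctaacaGGGGtgcatcctattctca
COX1 (chrmt:13973-14002, plus strand): acaattatttaatGGtgcgcctctcagtgc
STE12 (chr8:275571-275600, plus strand): taatcccatGGGGGGggatcctctactcga
HIP1 (chr7:880710-880739, plus strand): tctagctgtcGGGGGtgcaataggtactgg
TYW1 (chr16:160205-160234, plus strand): tggaaagaaaGGGGGgtgttgttcatctaa
PTK2 (chr10:547736-547765, plus strand): tggggatgaaGGGGGgaatgaaagcaccaa
PDB1 (chr2:666025-666054, minus strand): cacaatataacGGGGcttataaggtgtcaa
CPS1 (chr10:98321-98350, plus strand): agattttgtttGGGGgcgtggttctaacga

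The initiator pair was present at 83.2% of internal positions of the dcp2 list (interval 80.5 to 85.7%) and at 66.0% of those of the wild-type list (62.4 to 69.3%). By list, 87.9% of positions in the dcp2 list only had it (84.0 to 91.0%), 79.7% of those in both lists (75.8 to 83.2%) and 42.2% of those in the wild-type list only (36.4 to 48.2%). These shares were lower than among positions up to 200 nt upstream of genes, where 96.4% of the dcp2 list and 96.5% of the wild-type list had the pair, and lower than among antisense positions inside genes, with 98.1% and 96.6%. Of all bases on the coding strand of the genes that held an internal position, 23.1% were a purine after a pyrimidine.

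G-preceded positions numbered 120 in the dcp2 list (15.1% of its internal positions) and 233 in the wild-type list (32.5%). Of the 266, 33 were in the dcp2 list only, 87 in both lists and 146 in the wild-type list only. Such positions were rare upstream of genes, at 1.17% of the dcp2 list and 1.14% of the wild-type list, whereas 20.2% of all bases of the genes with an internal position qualified. The G run was exactly 1 base long at 70 positions, 2 at 69, 3 at 69 and 4 or more at 58. GGG directly before the position was found at 47.7% of G-preceded positions and 0.0706% of upstream positions, against 0.718% of all bases of the genes. Counting the position's own base as +1, an A stood at +4 in 62.0% of G-preceded positions. Whether G-preceded positions are starts of capped RNAs was not tested.

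**Figure D1:**
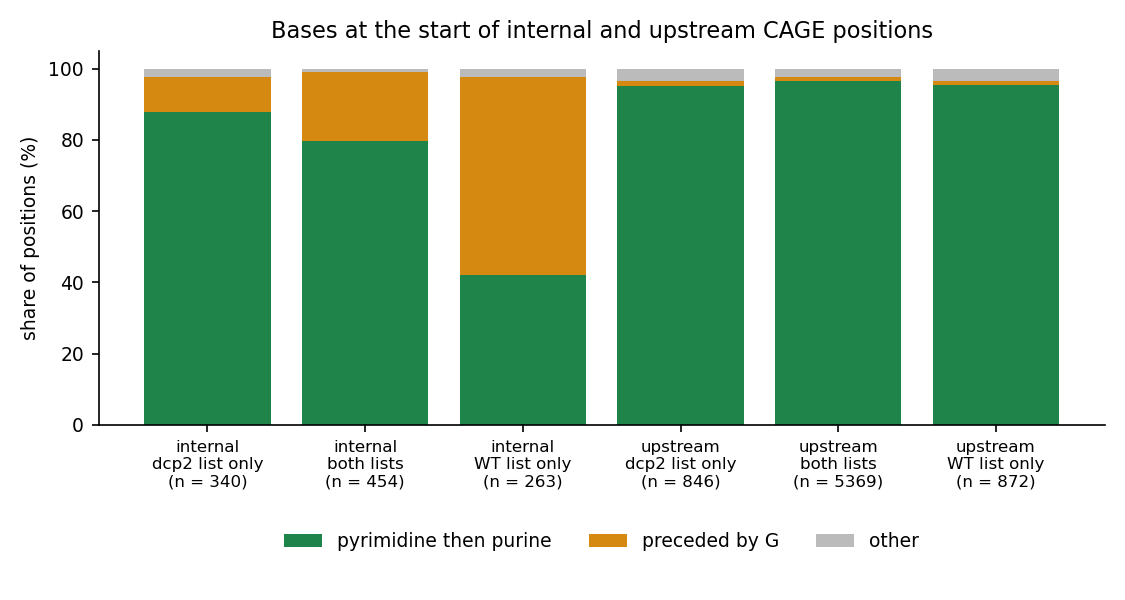
Share of positions (%, y axis) with the initiator pair, with a G before the position, or with neither, for internal positions by list and for upstream positions. The initiator share falls to 42.2% among internal positions in the wild-type list only and is 95% or more in the 3 upstream groups.

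The classes also differed in the bases further upstream. An A 8 bases before the position stood at 75.3% of initiator positions in the first 50 nt of the gene, at 71.4% of those beyond and at 32.0% of G-preceded positions. Upstream positions had it at 72.6%, and all bases of the genes at 32.2%. TATAAA or TATATA, searched on the coding strand from 120 to 20 bases before the position with overlaps counted once, was present before 25.1% of initiator positions in the first 50 nt, 9.91% of those beyond and 4.89% of G-preceded positions. The same window held one of these motifs before 26.4% of upstream positions and 7.04% of all bases of the genes.

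The lists shared fewer internal than upstream positions. Of internal positions, 57.3% of the dcp2 list and 63.3% of the wild-type list were in the other list, against 86.4% and 86.0% of upstream positions. The asymmetry ran opposite ways in the classes. Among initiator positions, 54.8% of the dcp2 list and 76.5% of the wild-type list were shared. Among G-preceded positions, 72.5% of the dcp2 list and 37.3% of the wild-type list were shared. The number of reads behind each list was not analysed here, and the part that depth has in these shares was not tested.

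Most members lay in coding exons, namely 749 of the 772 initiator positions and 262 of the 266 G-preceded positions. Of the rest, 9 initiator and 3 G-preceded positions lay in introns, and 14 and 1 lay before the start codon in genes whose table entry begins at an intron ahead of it. Distances are from the first base of the gene entry, counted as 0. Initiator positions gathered at the start of genes, with 227 (29.4%) in the first 50 nt and a median distance of 368 nt. Only 1 of the 266 G-preceded positions lay in the first 50 nt, and their median distance was 700 nt, or 36.3% of the gene's length. The 545 initiator positions beyond the first 50 nt had a median distance of 594 nt, or 46.7% of the length.

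Initiator positions in the first 25 nt numbered 58 in the dcp2 list only, 86 in both lists and 21 in the wild-type list only. From 50 to 99 nt the numbers were 13, 44 and 3. From 500 to 999 nt they were 90, 67 and 21. Each of these groups thus had positions both at the very start of genes and far inside them. The stretches differ in width, so the counts are not frequencies per nt. The G-preceded share of internal positions from 500 to 999 nt was 22.4% of the dcp2 list and 52.7% of the wild-type list. From 1000 to 1999 nt it was 18.2% and 46.8%, and from 2000 nt on it was 20.4% and 44.9%.

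Genes with an internal position less often had a position up to 200 nt upstream than other genes, with 59.3% of the 796 genes and 77.7% of the 5002 genes with no internal position. The share was 47.0% for genes with an initiator position in the first 50 nt (86 of 183), 54.1% for those with one beyond (224 of 414) and 74.1% for those with a G-preceded position (166 of 224). For 97 of the 183 genes with a start in the first 50 nt, then, neither list held a position in the 200 nt before the gene.

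The first ATG downstream of the initiator positions was examined for positions under 200 coding nt from the annotated start codon, a limit chosen after the data were seen. It was in the reading frame of the gene for 23 of 93 positions in the dcp2 list only (24.7%, interval 17.1 to 34.4%). In frame were 134 of 177 positions in both lists (75.7%, 68.9 to 81.4%) and 30 of 41 in the wild-type list only (73.2%, 58.1 to 84.3%). The background was every purine after a pyrimidine in the same stretch of all genes with an internal position of any kind. Of these, 9438 of 36311 (26.0%) were followed by an in-frame ATG first. Positions found in dcp2-7 alone were thus near this share, and those also or only found in wild type were far above it. The distance to the first ATG differed little, with medians of 27 nt, 21 nt and 23 nt.

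The same held on both sides of 50 coding nt. Under 50 nt the in-frame shares were 24.2% in the dcp2 list only, 75.2% in both lists and 75% in the wild-type list only, against 26.7% of all such bases. From 50 to 199 nt they were 25.9%, 76.9% and 66.7%, against 25.8%. From 200 nt on they were 20.6% of 194 positions (interval 15.5 to 26.9%), 27.7% of 159 (21.3 to 35.1%) and 46.3% of 67 (34.9 to 58.1%), against 32.2%. Far inside genes, positions in both lists were thus near the share of all such bases. Those in the dcp2 list only were below it and those in the wild-type list only above it. Some of these positions were the first base of the start codon they were assigned to, 5 in the dcp2 list only, 20 in both lists and 7 in the wild-type list only. Without them the shares under 200 nt were 20.5%, 72.6% and 67.6%. Positions in 1 gene can share their ATG, and in clusters of 20 nt the shares were 24.7%, 75% and 72.4%.

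**Figure D2:**
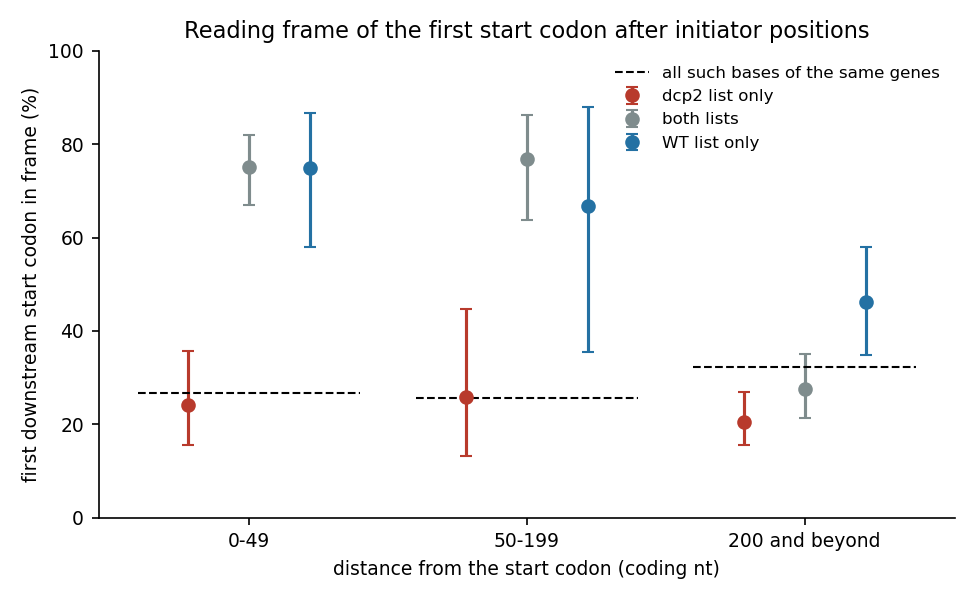
Share of initiator positions whose first downstream ATG is in frame (%, y axis) by distance from the start codon in coding nt (x axis), with 95% Wilson intervals, for positions in the dcp2 list only, in both lists and in the wild-type list only. Dashed lines mark all purines after a pyrimidine in all genes with an internal position. Positions in the dcp2 list only lie near the line under 200 nt, while those in both lists lie near 75%.

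The next lines show 5 positions in the dcp2 list only whose first ATG is out of frame, in genes of high density among that set. Each runs from 15 bases before the position to 64 after it, and the initiator pair and the first ATG are in capitals, run together where the position is the A of the ATG.
AMN1 (chr2:556694-556773, plus strand): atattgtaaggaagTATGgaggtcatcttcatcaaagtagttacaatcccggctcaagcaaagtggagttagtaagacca
NSG1 (chr8:371515-371594, minus strand): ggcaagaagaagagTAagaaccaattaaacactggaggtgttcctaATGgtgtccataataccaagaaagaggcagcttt
VBA2 (chr2:787055-787134, plus strand): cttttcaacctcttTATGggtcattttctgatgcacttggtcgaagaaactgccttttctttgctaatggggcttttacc
YJR124C (chr10:654169-654248, minus strand): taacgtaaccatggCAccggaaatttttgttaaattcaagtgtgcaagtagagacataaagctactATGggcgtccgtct
TVP38 (chr11:605352-605431, minus strand): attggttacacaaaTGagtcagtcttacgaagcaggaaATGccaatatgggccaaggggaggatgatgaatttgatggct
The next 5, drawn the same way, are in both lists and have their first ATG in frame.
HNT1 (chr4:239522-239601, minus strand): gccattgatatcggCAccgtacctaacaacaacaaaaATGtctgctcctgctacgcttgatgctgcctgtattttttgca
BOL2 (chr7:82429-82508, plus strand): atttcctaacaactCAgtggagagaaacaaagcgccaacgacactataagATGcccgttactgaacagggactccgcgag
ERG13 (chr13:20418-20497, minus strand): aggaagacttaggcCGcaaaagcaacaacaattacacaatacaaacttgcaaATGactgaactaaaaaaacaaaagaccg
SPL2 (chr8:374944-375023, minus strand): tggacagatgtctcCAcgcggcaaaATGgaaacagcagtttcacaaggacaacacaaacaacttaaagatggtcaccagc
PRT1 (chr15:1017511-1017590, minus strand): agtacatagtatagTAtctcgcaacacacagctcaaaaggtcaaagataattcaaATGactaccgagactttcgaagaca
The TVP38 position lay 2 nt into the gene, on the G of the annotated ATG, and the next ATG was 23 nt on and out of frame. In PRT1, which encodes a subunit of the translation initiation factor eIF3, positions at 77 and 82 nt were both in both lists, with the in-frame ATG 40 nt after the first.

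Initiator positions in the first 50 nt fell on the first base of a codon in 36.0% of cases (interval 30 to 42.5%), on the second base in 18.7% and on the last in 45.3% (39.0 to 51.9%). Of all purines after a pyrimidine over the whole coding length of all genes with an internal position, 46.8%, 19.1% and 34.1% fell there. The intervals for the first and last base did not include these shares. No share was computed for the first 50 nt alone, so a difference along the gene cannot be told apart from one of the positions. By contrast, 48.9% of initiator positions beyond 50 nt fell on the first base of a codon, 19.5% on the second base and 31.7% on the last, close to the same shares. G-preceded positions fell on the first, second and last base in 19.8%, 48.9% and 31.3% of cases. All bases of that kind in the same genes fell there in 30.2%, 46.5% and 23.2%.

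Genes listed for making a longer and a shorter form of their protein held internal positions in 7 of 9 cases, against 13.7% of all genes. They had 10 positions, of which 9 were initiator positions and 1 was G-preceded, with 2 in the dcp2 list only, 4 in both lists and 4 in the wild-type list only. LEU4 and CCA1 had none. The list was chosen with earlier results of these data known, so its share is not an independent result. The sequences below run from 15 bases before to 64 after the position, with the initiator pair and the first ATG, or the G run, in capitals.
SUC2 (chr9:37478-37557, plus strand): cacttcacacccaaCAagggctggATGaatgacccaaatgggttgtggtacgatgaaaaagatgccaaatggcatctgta
HTS1 (chr16:638946-639025, minus strand): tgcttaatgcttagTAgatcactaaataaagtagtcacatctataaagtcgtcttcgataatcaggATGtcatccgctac
KAR4 (chr3:27947-28026, plus strand): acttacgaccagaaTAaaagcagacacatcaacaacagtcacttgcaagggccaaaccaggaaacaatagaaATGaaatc
TRM1 (chr4:693170-693249, minus strand): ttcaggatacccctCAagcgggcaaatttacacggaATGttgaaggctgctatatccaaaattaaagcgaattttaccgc
MOD5 (chr15:837659-837738, plus strand): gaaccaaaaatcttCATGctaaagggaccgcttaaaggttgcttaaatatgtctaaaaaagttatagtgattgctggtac
GLR1 (chr16:375487-375566, plus strand): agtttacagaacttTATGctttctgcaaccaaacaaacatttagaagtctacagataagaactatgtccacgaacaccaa
VAS1 (chr7:672901-672980, plus strand): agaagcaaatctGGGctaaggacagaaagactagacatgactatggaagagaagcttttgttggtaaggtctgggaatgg
SUC2 encodes invertase, which is made as a secreted form and a cytoplasmic form that lacks the signal peptide. Its position was in the dcp2 list only, 108 nt into the gene, and the in-frame ATG followed 9 nt on. HTS1, which encodes the histidyl-tRNA synthetase of mitochondria and cytoplasm, had positions at 9 and 14 nt in both lists and at 17 nt in the wild-type list only, all with the same in-frame ATG, 51, 46 and 43 nt on. In KAR4, a transcription factor of the mating response, the position lay 33 nt in, in the wild-type list only, with an in-frame ATG 57 nt on. In TRM1, a tRNA methyltransferase, positions at 27 nt in both lists and at 31 nt in the wild-type list only lay 21 and 17 nt before an in-frame ATG. In MOD5, a tRNA isopentenyltransferase, and GLR1, the glutathione reductase, the position was the A of the annotated ATG, in both lists for MOD5 and in the wild-type list only for GLR1. VAS1, the valyl-tRNA synthetase, had only a G-preceded position, 730 nt in and in the dcp2 list only.

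Among genes with many positions, DUR12, which encodes urea amidolyase, had 4 initiator positions, at 238, 267, 2271 and 2274 nt, all in the dcp2 list only. TNA1, a nicotinic acid transporter, had 3 in the dcp2 list only, at 2, 915 and 934 nt. PRY3, a cell wall protein of the family that binds sterols, had positions at 1035, 1037 and 1043 nt in the dcp2 list only and at 2199 and 2202 nt in both lists, of which the one at 1037 nt was G-preceded. BNA2, an enzyme of NAD synthesis, had 2 at 26 and 28 nt in both lists, with the ATG in frame, and 2 further in, at 951 nt in both lists and 955 nt in the wild-type list only. YAT2, a carnitine acetyltransferase, had 632, 645 and 648 nt in both lists and 2594 nt in the dcp2 list only. The 4 positions of EEB1, an ethyl ester synthase, began with a G-preceded one at 339 nt in the dcp2 list only, 1 base before an initiator position at 340 nt in both lists. The positions of FTR1, the iron permease, lay at 759 and 777 nt, those of COM2, a transcription factor, at 457 and 468 nt and those of NCS2, a tRNA thiolation protein, at 1063 and 1083 nt, all in the dcp2 list only. YLR179C had 321 and 351 nt in the dcp2 list only and 354 nt in the wild-type list only, and YBL055C had 2 and 14 nt in the dcp2 list only and 26 nt in the wild-type list only.

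Some genes with more than 1 position in the wild-type list held only G-preceded ones, while others, such as BNA2, held only initiator positions. FKS1, the catalytic subunit of glucan synthase, had 4 G-preceded positions, at 937, 2443 and 4987 nt in both lists and at 1759 nt in the wild-type list only. RPA135, a subunit of RNA polymerase I, had 3 G-preceded positions, at 677 and 766 nt in both lists and at 1424 nt in the wild-type list only. SYH1 had 3, at 529, 1028 and 1544 nt, all G-preceded and in the wild-type list only. The positions of the protein mannosyltransferase gene PMT1, at 772 and 1027 nt, and of the ribosomal protein gene RPS13, at 561 and 669 nt, were G-preceded and in the wild-type list only. PMR1, the Golgi calcium pump, had 354 nt in the dcp2 list only and 365 nt and a G-preceded position at 989 nt in the wild-type list only. AXL2, a bud site protein, differed from these, with initiator positions at 2393 and 2446 nt in the wild-type list only beside a G-preceded one at 1088 nt, and an initiator position at 690 nt in the dcp2 list only. URA2, the first enzyme of pyrimidine synthesis, had 3 initiator positions at 232, 237 and 270 nt in both lists, all before its start codon, since its table entry begins at an intron ahead of it.

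Over all genes, 13.7% held an internal position. Of the other gene lists, ribosomal proteins had internal positions in 20 of 138 genes, with 24 positions of which 2 were initiator, 16 G-preceded and 6 neither. Glycolytic genes had them in 6 of 20, and all 7 positions, in CDC19, PFK1, ENO2, PDC1, PFK2 and ADH1, were G-preceded. The chaperones had them in 3 of 25 genes, SSB1, SSC1 and HSP104, and the elongation factors in 1 of 8, TEF4. Histones (0 of 10) and genes known for cryptic internal transcripts in chromatin mutants (0 of 10) had none, though lists of 10 genes are too small to set apart from the share of all genes. Among 13 decay factors, DHH1, a helicase that activates decapping, had a G-preceded position at 751 nt and DCP2 itself had 2 initiator positions at 2741 and 2751 nt of its 2913 nt, all in the dcp2 list only.
DHH1 (chr4:171115-171194, minus strand): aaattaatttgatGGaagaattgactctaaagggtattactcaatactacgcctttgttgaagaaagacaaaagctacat
DCP2 (chr14:402759-402838, minus strand): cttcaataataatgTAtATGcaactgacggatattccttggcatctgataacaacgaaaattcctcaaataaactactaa

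The classes lay in genes of different RNA level. G-preceded positions lay in abundant genes, with a median density of 1.10 in dcp2-7 and 0.829 in wild type, against 0.458 and 0.251 over all genes. They were in 0.345% of genes of decile 1, the lowest by density, and in 9.83% of those of decile 10. Initiator positions at 200 coding nt and beyond went the other way, in 11.1% of genes of decile 1 and 0.862% of those of decile 10. Those under 200 coding nt were in 2.25% of genes of decile 1, 7.41% of decile 2, the highest share, and 1.21% of those of decile 10. Median gene lengths were 2064 nt for G-preceded genes, 1563 nt for initiator genes at 200 nt and beyond and 1203 nt for those under 200 nt, against 1213 nt over all genes. The density was not split by position within genes, so reads from an internal start count toward it.

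**Figure D3:**
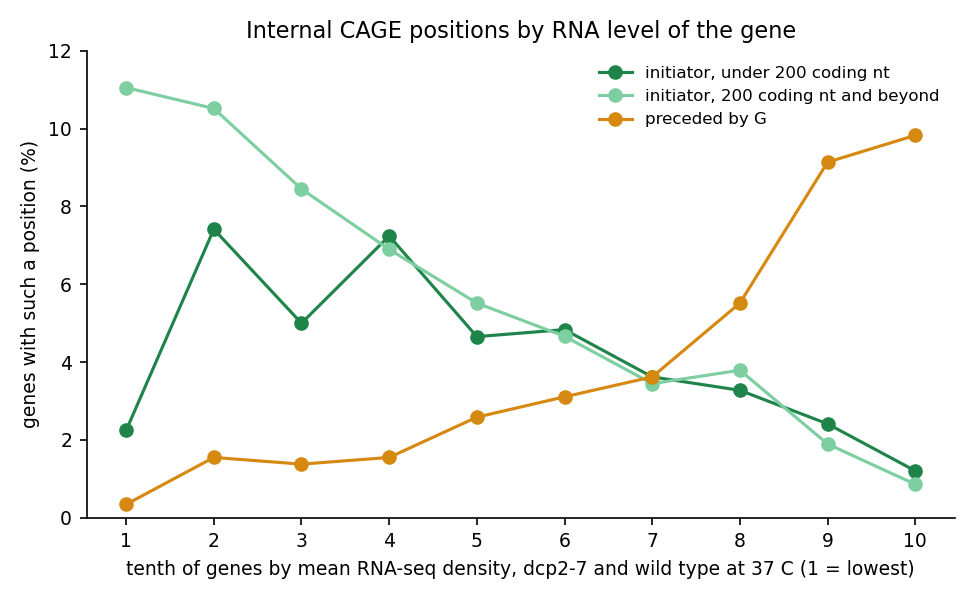
Share of genes with an internal position (%, y axis) by decile of genes ranked by mean RNA-seq density in dcp2-7 and wild type at 37 °C (x axis, 1 the lowest), for the 3 kinds of position. The G-preceded line climbs to 9.83% in decile 10 and the line of initiator positions at 200 coding nt and beyond drops to 0.862% there.

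In dcp2-7 against wild type at 37 °C, 616 of the 796 genes with an internal position rose (77.4%) and 19 fell at an adjusted p under 0.05 with limma, near the 80.2% that rose and 1.55% that fell among all genes. The share that rose was 88.9% of genes with an initiator position under 200 coding nt (216 of 243), 79.5% of those with one at 200 nt and beyond (263 of 331) and 62.1% of G-preceded genes (139 of 224). Median log2 changes were 0.84, 0.82 and 0.45, against 0.71 over all genes. Among the top 25% of genes by density, 51.9% of G-preceded genes rose, against 71.9% of all genes there. In bulk RNA, fewer cells with an RNA and less of it per cell cannot be told apart.

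As read here, the densities rest on equal snoRNA reads, and with libraries scaled to equal mRNA medians the change of all genes shifted by -0.85 on the log2 scale. Then 25% of genes with an internal position rose and 39.9% fell, against 23.4% and 39.7% of all genes, and of the G-preceded genes 9.38% rose and 65.6% fell. The direction of called changes thus depended on the scaling.

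In xrn1Δ, 743 of the 796 genes rose (93.3%) and 3 fell, against 94.8% and 0.26% of all genes. Among G-preceded genes 84.4% rose, with a median log2 change of 1.04 against 1.58 over all genes. With equal mRNA medians, which shifted all genes by -1.77, 255 of the 796 genes rose and 333 fell, against 28.9% and 43.4% of all genes, and of the G-preceded genes 8.48% rose and 73.2% fell.

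In upf1Δ, 392 of the 796 genes rose (49.2%) and 4 fell, against 47% and 0.521% of all genes. The share that rose was 65.0% for initiator positions under 200 coding nt (158 of 243), 61.3% for those at 200 nt and beyond (203 of 331) and 16.1% for G-preceded positions (36 of 224). The genes were also grouped by list and frame together. Of the 66 genes with an initiator position under 200 coding nt that was in the dcp2 list only and had its first ATG out of frame, 55 rose in upf1Δ (83.3%) and 0 fell, with a median log2 change of 0.96. Of the 106 genes with such a position in both lists and in frame, 60 rose (56.6%) and 1 fell, with a median of 0.46, and over all genes the median was 0.32. Below the top 25% of genes by density, 54 of 62 (87.1%) and 55 of 89 (61.8%) rose, against 54.6% of all genes there. With equal mRNA medians, which shifted all genes by -0.62, 37 of the 66 rose and 8 fell, and 24 of the 106 rose and 45 fell, against 22.7% and 52.7% of all genes. In dcp2-7 the sets were closer together, with 61 of 66 (92.4%, median 0.85) and 92 of 106 (86.8%, median 0.77) that rose. In xrn1Δ 66 of 66 and 105 of 106 rose, with medians of 2.02 and 1.68. Of all genes, 80.2% rose in dcp2-7 (median 0.71) and 94.8% in xrn1Δ (median 1.58). These 2 sets differ in both list and frame, so the other combinations were added after seeing the data. In the dcp2 list only and in frame, 7 of 20 genes rose in upf1Δ (35%, median 0.26), and in both lists and out of frame, 32 of 38 rose (84.2%, median 1.34). In upf1Δ with equal mRNA medians, 1 of those 20 genes rose and 12 fell, and 26 of those 38 rose and 5 fell. Within each list the out-of-frame genes thus had the larger share that rose, and a gene with several positions can be in more than 1 set. The sets were defined after the CAGE data were seen, by list, position and frame and not by RNA-seq level. List membership depends on the capped RNA of dcp2-7 and wild type, so the sets are not independent of RNA changes in dcp2-7. No test was made between the sets.

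**Figure D4:**
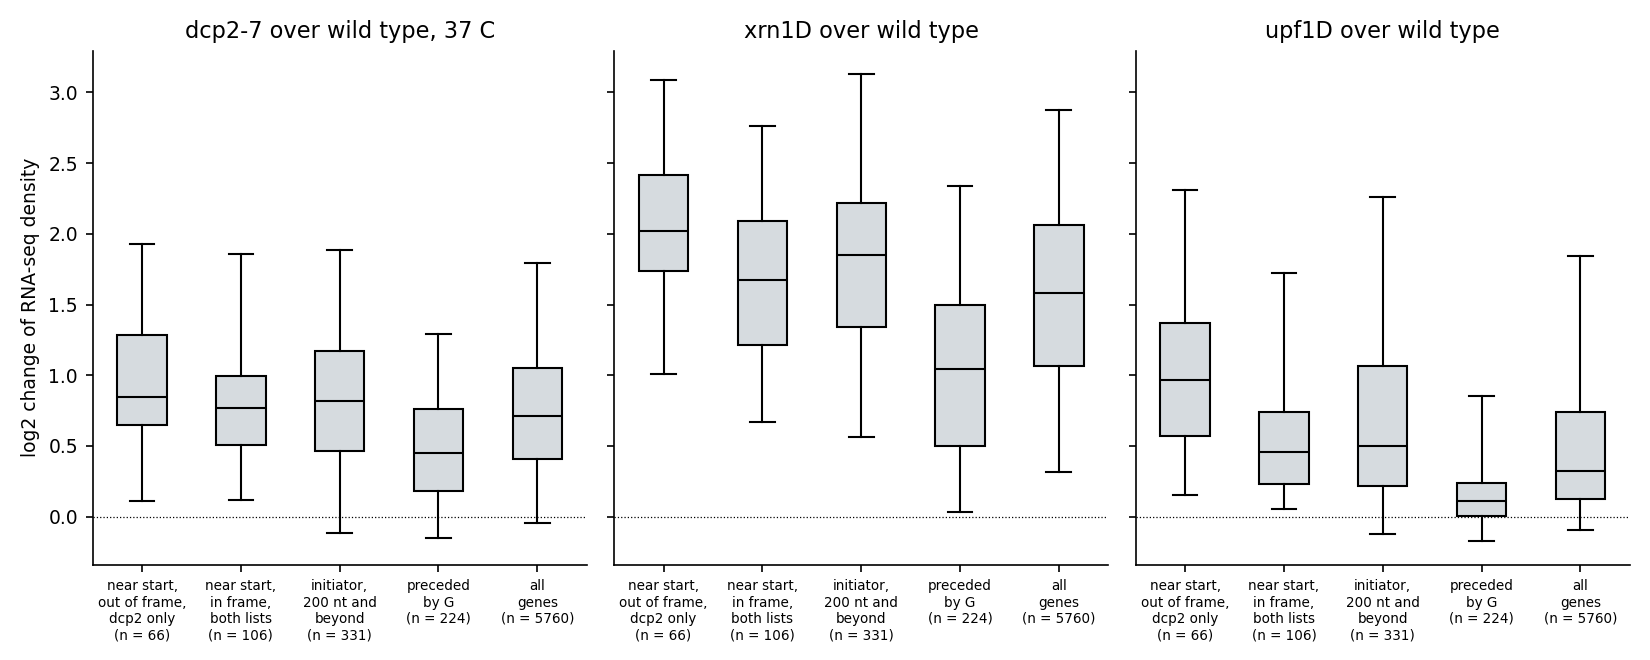
Log2 change of RNA-seq density (y axis) in dcp2-7, xrn1Δ and upf1Δ, each against its wild type, for genes grouped by their internal positions and for all genes. Boxes span the quartiles with the median as a line, and whiskers run from the 5th to the 95th percentile. In upf1Δ the out-of-frame genes of the dcp2 list have a median of 0.96 and the G-preceded genes one of 0.11.

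VBA2, which encodes a vacuolar amino acid transporter, was 1 of the 66 and had 3 internal positions, at 64 nt in the dcp2 list only, 87 nt in both lists and 91 nt in the wild-type list only, all with the ATG out of frame. Its density was 0.868 and 0.821 in upf1Δ, against 0.183 and 0.190 in its wild type. It was 1.19 and 1.04 in dcp2-7, against 0.183 and 0.266 in wild type at 37 °C. Both groups were apart, and the log2 changes were 2.14 (SE 0.18, adjusted p = 1.15e-09) and 2.30 (SE 0.18, adjusted p = 4.63e-10). YJR124C, with 1 position 5 nt in, had a density of 0.789 and 0.710 in upf1Δ, against 0.394 and 0.413 in its wild type (log2 change 0.88, adjusted p = 1.36e-05). The other genes printed above for out-of-frame ATGs did not pass the test in upf1Δ, with log2 changes of 0.20 for AMN1, an antagonist of mitotic exit (adjusted p = 0.364), 0.25 for NSG1, a regulator of sterol synthesis (adjusted p = 0.204), and 0.28 for TVP38, a Golgi membrane protein (adjusted p = 0.113). Of the genes printed for in-frame ATGs, BOL2, which acts in iron regulation (0.58, adjusted p = 0.000464), and HNT1 (0.35, adjusted p = 0.0457) rose, and SPL2, a regulator of phosphate uptake, fell (-0.38, adjusted p = 0.0396). ERG13, the HMG-CoA synthase (0.11, adjusted p = 0.529), and PRT1 (0.05, adjusted p = 0.777) did not pass.

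Of the 45 genes with at least 3 internal positions, 33 rose in dcp2-7 with groups that did not overlap and 1 fell, against 79.9% and 1.46% of all genes by the same rule. COX23, a mitochondrial protein needed for cytochrome oxidase, had positions at 54, 60 and 62 nt with an in-frame ATG. Its density was 0.878 and 0.633 in dcp2-7, against 0.120 and 0.119 in wild type, a log2 change of 2.59 (SE 0.16, adjusted p = 5.14e-12). YHL042W, with positions at 144, 164 and 169 nt, had 0.369 and 0.355 in dcp2-7, against 0.0676 and 0.0665 in wild type (log2 change 2.34, adjusted p = 8.42e-13). YCR101C had positions at 13, 31 and 44 nt, all with an out-of-frame ATG, and a density of 0.183 and 0.145 in dcp2-7, against 0.0391 and 0.0428 in wild type (1.85, adjusted p = 1.82e-11). PUS5, a pseudouridine synthase of mitochondrial rRNA, had out-of-frame positions at 8, 16 and 23 nt and 0.318 and 0.272 in dcp2-7, against 0.0855 and 0.113 in wild type (1.53, adjusted p = 5.1e-09). In upf1Δ the log2 changes were 0.73 for COX23, 2.42 for YHL042W, 2.53 for YCR101C and 1.91 for PUS5. The gene that fell was TNA1, with 1.64 and 1.47 in dcp2-7, against 1.67 and 2.37 in wild type, a log2 change of -0.36 (SE 0.16, adjusted p = 0.0453), whose 3 positions were all in the dcp2 list only.

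Of the 16 genes named for their number of positions with all of them at least 200 nt inside, 7 rose in upf1Δ, 0 fell and 9 did not pass the test. This was near the share of all genes, of which 47% rose and 0.521% fell. YAT2 had a density of 0.236 and 0.226 in upf1Δ, against 0.0369 and 0.0337 in its wild type, a log2 change of 2.53 (SE 0.18, adjusted p = 2.59e-11). EEB1 had 0.327 and 0.285 in upf1Δ, against 0.0923 and 0.0993 in its wild type (1.62, SE 0.14, adjusted p = 1.29e-09). DUR12 had 0.509 and 0.442 in upf1Δ, against 0.282 and 0.257 in its wild type (0.80, adjusted p = 0.000162). In these 3 genes the upf1Δ libraries were above both wild-type libraries. The log2 changes that did not pass ran from -0.27 in SYH1 (adjusted p = 0.111) to 0.43 in PRY3 (adjusted p = 0.08).

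Among genes with 2 protein forms, SUC2 rose in dcp2-7 to 1.09 and 0.927, against 0.417 and 0.640 in wild type (log2 change 0.95, SE 0.20, adjusted p = 0.000169). KAR4 (0.49, adjusted p = 0.0017), MOD5 (0.56, adjusted p = 0.000232) and GLR1 (0.42, adjusted p = 0.00741) also rose, and HTS1 (-0.04, adjusted p = 0.799), TRM1 (adjusted p = 0.978) and VAS1 (-0.07, adjusted p = 0.63) did not pass. DHH1 rose to 4.35 and 3.69 in dcp2-7, against 0.961 and 1.25 in wild type (1.86, SE 0.14, adjusted p = 1.32e-10). DCP2 rose to 0.553 and 0.506 in dcp2-7, against 0.289 and 0.373 in wild type (0.68, SE 0.13, adjusted p = 5.49e-05). Of the genes with many G-preceded positions, FKS1 (0.49, adjusted p = 0.00342), RPA135 (0.36, adjusted p = 0.0313), SYH1 (0.33, adjusted p = 0.0383) and RPS13 (0.51, adjusted p = 0.000569) rose, and PMT1 (-0.15, adjusted p = 0.469) did not pass.

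In dcp2-7, 12 of 13 decay factors, 21 of 25 chaperones, 15 of 20 glycolytic genes and 75 of 138 ribosomal protein genes rose. So did 7 of 10 genes with cryptic transcripts and 6 of 9 genes with 2 protein forms. None of these fell except 1 chaperone. Over all genes, 80.2% rose and 1.55% fell. Of the elongation factors 1 of 8 rose and 3 fell, and of the histones 0 of 10 rose and 5 fell.

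Terminator digestion was used to ask whether the RNA of these genes resisted a 5′-monophosphate exonuclease. As read here, the values are relative to the snoRNA reads of each library. A value that is higher after digestion is thus higher relative to snoRNAs and not a rise of the RNA itself. With equal mRNA medians, called genes in wild type were more often lower than higher. In dcp2-7, 161 of 795 tested genes with an internal position were higher after digestion (20.3%) and 22 lower, against 20.4% and 3.85% of all genes. In wild type 130 were higher (16.4%) and 17 lower, against 17.9% and 2.43%. These counts moved with single libraries. In dcp2-7 they were 67 higher and 12 lower without undigested replicate 2, 94 and 9 without digested replicate 1, and 101 and 7 without digested replicate 2. In wild type they were 58 higher and 33 lower without undigested replicate 1, 60 and 34 without digested replicate 2, and 283 and 7 without digested replicate 1. The median log2 change in wild type was 0.15, and -0.01, -0.02 and 0.31 in those 3 fits. Of the 66 genes with an out-of-frame position in the dcp2 list only, 5 were higher after digestion in dcp2-7 and 6 in wild type. The digestion response differed between dcp2-7 and wild type in 0 of the 795 genes with limma, against 0.0175% of all genes in each direction. There were 6 at an unadjusted p under 0.05, and limma voom on the recovered reads called 1. PRY3 was higher after digestion by a log2 change of 2.14 in dcp2-7 (SE 0.16, adjusted p = 1.3e-11) and 2.45 in wild type (SE 0.16, adjusted p = 4.6e-13). G-preceded genes, like all genes, were more often higher than lower after digestion. Higher were 56 of 224 in dcp2-7 and 53 in wild type, and lower were 12 and 9. COX1, a mitochondrial gene that is not transcribed by RNA polymerase II, went against most of these called genes. COX1 had lower values after digestion, by -1.10 in dcp2-7 (adjusted p = 3.34e-06) and -1.21 in wild type (adjusted p = 5.86e-07). Its 4 positions in the CAGE lists, at 170 and 11526 nt in both, at 2654 nt in the dcp2 list only and at 6773 nt in the wild-type list only, were all G-preceded.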

How the data were processed

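The CAGE positions were deposited by the authors as 1 list of single nucleotides per genotype, pooled over replicates, without scores, so list membership has no other unit. RNA-seq was deposited by the authors as a signal per feature, named a density in the column names per the file headers, and its scaling to snoRNA reads was inferred from the values. Density times length was a whole multiple of 1 value per library in 100% of values (tolerance 0.01). TopHat, cutadapt and Bowtie were used per the submitters' processing notes, and their versions, the peak caller and the genome build were not given in the sources used here. Of 5798 genes, 5757 had the same start and end as in the R64 reference.

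Members were found by the deposited base. On the minus strand, upstream positions had the initiator pair at 0.422% as deposited and at 96.7% after a shift of 1 nt downstream (plus strand, unshifted, 95.9%), so minus-strand positions were shifted by 1 nt for sequence, distance and frame. The 10 positions inside a gene and upstream of another were left out. Log2(density + 5th percentile of non-zero densities, 0.00577 or 0.00841 with Terminator) served as the response in limma (version 3.58.1, R 4.3.3, trend and robust empirical Bayes) over all 24 rRNA-depleted libraries of the series, or the 16 of the strains with Terminator libraries (12 and 8 residual degrees of freedom), on features at or above that value in at least 2 libraries. P-values are two-sided and adjusted with Benjamini-Hochberg over all features tested. Fold changes on this scale understate those of low genes. The step that assigns positions was tested on simulated positions.

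The members and lists were chosen with earlier results of these data known. The genes named are the 12 with the most internal positions, and the 8 and 5 with the most in the dcp2 and wild-type list only. Genes with 2 protein forms and decay factors were named where they held a position. So were the 5 largest rises and falls in dcp2-7 among genes with at least 3 positions and groups that did not overlap. The sets by reading frame, by density and of the longest G runs, and the genes shown with them, were chosen after the data were seen.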

Additional observations from a re-analysis of the deposited data

How the results depend on the processing

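Of 155 values recomputed under alternatives, 131 stayed near the reported ones, 20 moved and 4 reversed, in that most called genes then changed the other way. Shares were judged by the interval of the reported share. Counts had no such interval and were judged by their ratio to the reported count. All 4 came with equal mRNA medians. With the first 50 nt of genes left out, the initiator pair was at 65.9% of all internal positions, 78.1% of the dcp2 list and 56.3% of the wild-type list, and 58.7% of the wild-type list was shared. With 1 position per cluster of 20 nt, the pair was at 70.1% of all positions and 61.1% of the wild-type list. Counting a position as shared within 20 nt, 64.1% of the dcp2 list and 68.1% of the wild-type list were shared, and 61.9% and 82.2% of initiator positions. The in-frame shares ranged over 20.5 to 34.0% in the dcp2 list only, 69.5 to 80.7% in both lists and 65.2 to 80.0% in the wild-type list only, over alternatives chosen after seeing the data.

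With equal mRNA medians, 517 of the 796 genes were called in dcp2-7, 199 higher and 318 lower, 588 in xrn1Δ, 255 higher and 333 lower, and 600 in upf1Δ, 214 higher and 386 lower, against 635, 746 and 396 reported. The Terminator counts depended most on the settings. In dcp2-7, 183 genes were called as reported, 275 in a fit of the groups compared only, 388 with equal mRNA medians, and 79 to 161 with 1 library left out. The lowest counts came without dcp2-7 replicate 2 (79), Terminator-treated dcp2-7 replicate 1 (103) and replicate 2 (108). In wild type, 147 were called as reported, 48 in a fit of the groups compared only, 346 with equal mRNA medians (168 higher and 178 lower), and 91 to 290 with 1 library left out, with 91 without wild-type replicate 1, 290 without Terminator-treated replicate 1 and 94 without Terminator-treated replicate 2. The difference between genotypes had 0 called genes, 1 with limma voom and 0 with any 1 library left out. The cause was not tested. With 1 library left out, 513 to 676 genes were called in dcp2-7, 724 to 739 in xrn1Δ, 311 to 392 in upf1Δ, and 50 to 55 of the 66 out-of-frame genes, assuming that a lone library varies as the other groups do. The pooled CAGE lists allowed no replicate to be left out.

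Replicate numbers did not pair the samples: the correlation of same-numbered deviations lay between -0.0728 and 0.244. With the replicate block, 634 genes were called in dcp2-7 (635 without), 746 in xrn1Δ (746), 383 in upf1Δ (396), 193 and 155 for Terminator in dcp2-7 and wild type (183 and 147) and 55 of the 66 out-of-frame genes (55).

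Precision of the positions is limited by their number and by lists without heights. How strongly each start is used, and whether it varies between cultures, cannot be read from them.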
